A study of Mus musculus with 8 samples.

Results

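The genes described here are the cadherins and protocadherins of the array, taken as those whose symbol in the array's annotation is Cdh with a number or begins with Pcdh. They number 58, measured by 60 probes, of 16390 named genes and 23473 gene probes on the array. The RNA came from embryoid bodies, balls of differentiating cells, grown from the mouse embryonic stem cells called iTbx6 T-GFP. In them doxycycline (Dox) can induce Tbx6, which encodes a T-box factor of presomitic mesoderm. The T in the name is Brachyury, a T-box factor of the primitive streak, and GFP is a fluorescent reporter. All 4 groups are of this line: DoxOFF_day2 and DoxOFF_day4 without Dox, DoxOn_day2 and DoxOn_day4 with it, each with 2 arrays. Embryoid bodies grew for 2 days in serum-free medium with no growth factor added, and were then taken apart and reaggregated in that medium for a further 2 days. The labels do not say when Dox was added. No cells without the transgene received Dox, so Dox itself and Tbx6 induction cannot be told apart. Nothing in the labels says that a group's replicates came from separate cultures. The p-values therefore cover the spread between these samples only, which may be technical.

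Cadherins are calcium-dependent adhesion proteins of the cell surface. Classical type I and type II cadherins bind like molecules on neighbouring cells and are tied to actin through catenins. Protocadherins carry more cadherin repeats outside the cell and share no catenin-binding tail with the classical ones; many of them are encoded in clusters of near-identical genes. In the early mouse embryo E-cadherin (Cdh1) holds the epiblast together, and N-cadherin (Cdh2) marks both the neural plate and the newly formed mesoderm.

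Levels are log2 of normalized array intensity with a floor at 1.04, and a level compares only with the same probe on other arrays. An array gives total RNA of a mixed culture, so fewer cells of a type and less RNA per cell cannot be told apart. Changes are given with the standard error (SE) of a limma fit over all 8 arrays, and rose or fell is written only where limma's adjusted p over 21661 probes was under 0.05. Arrays set to the floor show no spread, so for genes at the floor in whole groups the SE and p-value understate the spread. A probe counted as above background where it exceeded the mean of the blank spots by 2 SD. This held for 86.0% to 89.2% of gene probes per array, and for 36 to 48 of the 58 genes, each read by its brightest probe. The Tbx6 probe read 5.21 and 5.48 in DoxOn_day2 against 5.59 and 5.49 in DoxOFF_day2 (adjusted p = 0.395). At day 4 it read 6.10 and 6.23 with Dox against 5.50 and 5.58 without, a rise of 0.62 ± 0.12 (adjusted p = 0.00915). The probe has a position not given in the sources used here. Whether it reads the transgene is therefore unknown, and group names below are those of the labels.

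Of the 58 genes, 50 passed the filter for testing (above background on at least 2 arrays) and 28 were above background on all 8 arrays. The 50 comprise 5 of 5 type I cadherins, 12 of 13 type II cadherins, 5 of 5 other Cdh genes, 8 of 9 delta protocadherins, 4 of 4 other unclustered protocadherins and 16 of 22 clustered protocadherins. Pcdhb9, Pcdhb14, Pcdhb18, Pcdhgc5 and Pcdh11x were above background on no array, and Pcdhb4, Pcdhb13 and Cdh7 on 1 array each. Pcdhb3, Pcdhb5, Pcdhb11 and Pcdhb17 were above background in DoxOFF_day4 alone. Pcdh17, Pcdhb1 and Pcdh10 would likewise have failed the filter without that group. For these 7 genes a higher level in DoxOFF_day4 was favoured by the filter itself, so the counts below are also given for the other 43 genes.

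Promoter sequences from RefSeq (GRCm38.p6, 250 bases before to 50 bases after the start of the gene) were searched for 23 of the genes. Cdh2, Pcdh12 and the clustered protocadherins are not among the 23, so their promoters were not searched. Of the 23 genes, 3 are shown because they changed at day 4. Cdh15 had the largest rise with Dox at day 4 among the genes searched and Cdh22 the largest fall. Of the genes that rose with Dox at day 4, Cdh1 had no entry and Pcdh1 was left out, so neither was searched. Among the rising genes that were, Cdhr1, the platform's Pcdh21, has a promoter that holds CACCTG, the box bound by Snail and Zeb repressors. That box was searched on both strands. The promoters of 3 genes that changed at day 4 are shown, with the box in capitals. These are Cdh15, on the plus strand, chr8:122848124-122848423, then Cdh22, on the minus strand, chr2:165234688-165234987, and Cdhr1, on the minus strand, chr14:37098298-37098597:
Cdh15: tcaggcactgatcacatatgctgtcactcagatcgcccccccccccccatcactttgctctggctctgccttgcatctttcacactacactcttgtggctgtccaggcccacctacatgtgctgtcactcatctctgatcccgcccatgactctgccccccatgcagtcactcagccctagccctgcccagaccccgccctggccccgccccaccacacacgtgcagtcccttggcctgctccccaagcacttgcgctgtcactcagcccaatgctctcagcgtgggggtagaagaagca
Cdh22: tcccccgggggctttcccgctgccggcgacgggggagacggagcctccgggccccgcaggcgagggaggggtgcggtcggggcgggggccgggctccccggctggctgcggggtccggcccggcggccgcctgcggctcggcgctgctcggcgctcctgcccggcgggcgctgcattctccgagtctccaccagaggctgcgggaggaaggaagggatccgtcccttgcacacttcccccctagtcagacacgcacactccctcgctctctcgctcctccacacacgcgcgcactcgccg
Cdhr1: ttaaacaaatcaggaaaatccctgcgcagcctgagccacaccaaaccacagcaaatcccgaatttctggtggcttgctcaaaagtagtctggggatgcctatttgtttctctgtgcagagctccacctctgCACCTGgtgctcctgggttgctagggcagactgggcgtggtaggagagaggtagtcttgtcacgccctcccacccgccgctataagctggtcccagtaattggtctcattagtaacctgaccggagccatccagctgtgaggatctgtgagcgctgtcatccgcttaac
The Cdh22 stretch holds 38 CG pairs, the Cdhr1 stretch 9 and the Cdh15 stretch 7, against a median of 7 over all promoters. The 23 genes have 26 promoters, and a gene counted where any of its promoters held a match. CACCTG occurred in 4 of the 23 genes (Cdh7, Cdhr1, Pcdh15 and Pcdh7). Counted by promoter and not by gene, 20.21% of 32851 promoters hold it. The T-box core AGGTGT, searched on both strands, occurred in 1 of the 23 genes (Cdh7, in 1 of its promoters), and 13.74% of promoters hold it. A match is a string of letters and not a site shown to be bound.

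The study compared cells with and without Dox at each day. At day 4 the type I cadherins Cdh1 and Cdh15 were higher and Cdh2 lower in DoxOn_day4 than in DoxOFF_day4, and 4 of the 50 genes tested rose and 10 fell. Those 14 genes are 28% of the members, against 29.9% of all 21661 probes called in either direction (14.4% higher, 15.5% lower), so the share lies near the background. Among the 43 genes that did not depend on DoxOFF_day4 to be tested, 4 rose and 7 fell (25.6%). Of the 14, 12 changed at least 2-fold in the fit, 4 higher and 8 lower. The 8 include Pcdh17, Pcdhb3 and Pcdhb17, whose higher level in DoxOFF_day4 the filter favoured. The share of all probes changing at least 2-fold was not computed. The median change of the members was -0.25, against -0.04 over all probes tested. It covers all 50 genes, among them the 7 whose higher level in DoxOFF_day4 the filter favoured. When background was instead removed by normexp from the local background values, which tracked the spots, limma called 0 members in each of the 5 comparisons and 3 at most of all probes.

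Cdh1 encodes E-cadherin, the adhesion protein of epithelia and of the epiblast. It read 10.80 and 10.54 in DoxOFF_day2, 10.11 and 10.06 in DoxOn_day2, 10.07 and 10.21 in DoxOn_day4, and 4.79 and 4.60 in DoxOFF_day4. The 2 arrays of DoxOFF_day4 stood far below all others, and the groups at day 4 did not overlap. The difference with Dox at day 4 was 5.45 ± 0.13 (limma, adjusted p = 1.05e-06), a 43.7-fold difference. From day 2 to day 4 Cdh1 fell 63.1-fold without Dox (-5.98 ± 0.13, adjusted p = 5.66e-07), while with Dox the change was 0.05 ± 0.13 (adjusted p = 0.835). At day 2 Cdh1 was lower with Dox by a smaller amount (-0.58 ± 0.13, adjusted p = 0.0314). That day 2 call ended without either DoxOn_day2 array, without DoxOFF_day2 replicate 1 and without either DoxOn_day4 array, with an adjusted p of up to 0.147 over the alternatives other than normexp.

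Cdh2 encodes N-cadherin. It read 6.75 and 6.56 in DoxOFF_day2, 6.67 and 6.76 in DoxOn_day2, 8.51 and 8.47 in DoxOn_day4, and 11.07 on both DoxOFF_day4 arrays. At day 2 the groups overlapped (0.06 ± 0.10, adjusted p = 0.801), and at day 4 they stood well apart. Cdh2 rose from day 2 to day 4 in both conditions, by 4.41 ± 0.10 without Dox (21.3-fold, adjusted p = 7.05e-07) and by 1.78 ± 0.10 with Dox (3.42-fold, adjusted p = 0.000107). At day 4 it was 5.97-fold lower with Dox than without (-2.58 ± 0.10, adjusted p = 7.2e-06). DoxOFF_day4 was thus low for Cdh1 and high for Cdh2, and DoxOn_day4 had Cdh1 near its day 2 level with Cdh2 above its day 2 level. The comparisons at day 4 and over time share the DoxOFF_day4 arrays.

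Cdh15 encodes M-cadherin, known from skeletal muscle precursors. Its levels were 4.46 and 4.52 in DoxOFF_day2, 4.33 and 4.41 in DoxOn_day2, 3.88 and 3.73 in DoxOn_day4, and 1.94 and 1.88 in DoxOFF_day4. As with Cdh1, the DoxOFF_day4 arrays were the low ones, and Dox made a difference of 1.90 ± 0.10 at day 4 (3.73-fold, adjusted p = 2.23e-05) and of -0.13 ± 0.10 at day 2 (adjusted p = 0.515). With Dox it also fell slightly over time, by 0.56 on the log2 scale (adjusted p = 0.00922). That fall was not called without DoxOn_day2 replicate 2 or without DoxOn_day4 replicate 2 (adjusted p up to 0.0591). Cdh3, which encodes P-cadherin of epithelia and placenta, lay between 9.35 and 9.60 on all 8 arrays and was called in no comparison (day 4, -0.16 ± 0.11, adjusted p = 0.346). Cdh4, encoding R-cadherin of retina and other neural tissue, lay between 5.27 and 5.84 and rose a little over time without Dox (0.36 ± 0.10, adjusted p = 0.0261) and with Dox (0.45 ± 0.10, adjusted p = 0.0199). Without other single arrays of the groups compared these 2 calls were lost, with adjusted p up to 0.114 without Dox and 0.0995 with it; leaving out DoxOFF_day4 replicate 1 kept the rise without Dox.

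**Figure D1:**
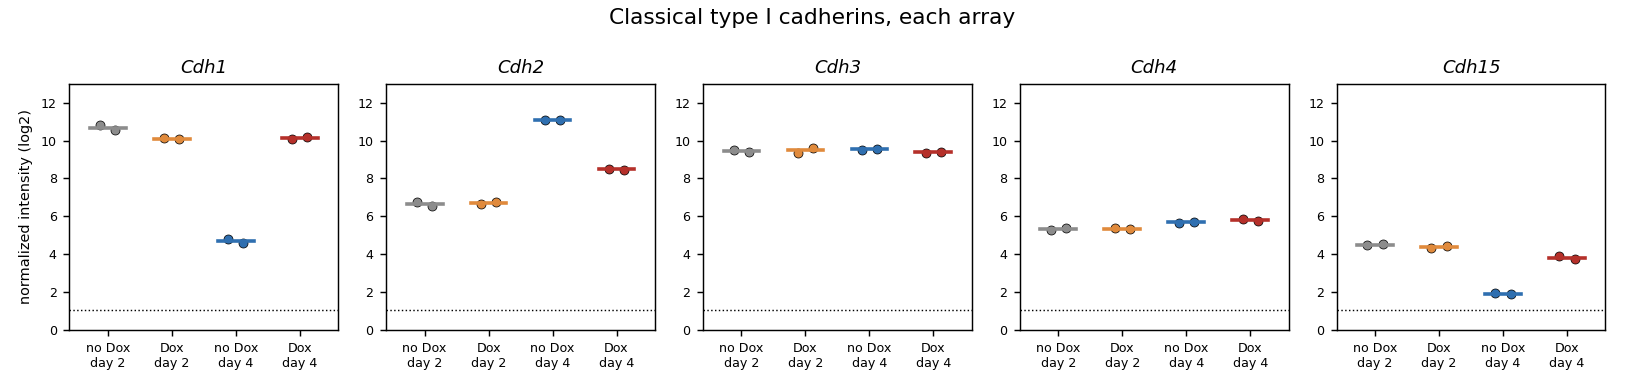
Normalized log2 intensity (y axis) of the 5 classical type I cadherins on each array, by group (x axis); points are arrays, bars the mean of 2 arrays, and the dotted line is the floor at 1.04. Cdh1 sits at 4.79 and 4.60 in the group without Dox at day 4 and above 10 elsewhere, Cdh2 peaks at 11.07 in that same group, and Cdh3 stays between 9.35 and 9.60.

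Many type II cadherins are known from restricted sets of neurons. Of 12 tested, 0 rose and 2 fell with Dox at day 4 (Cdh22 and Cdh6), against 14.4% of all probes higher and 15.5% lower. From day 2 to day 4 without Dox 5 rose and 1 fell, against 20.2% higher and 17.9% lower. Cdh22 encodes a cadherin known from brain. It read 2.18 and 2.28 in DoxOFF_day2, was above background on neither DoxOn_day2 array (both at the floor of 1.04), and read 2.49 and 2.54 in DoxOn_day4 and 5.83 and 5.77 in DoxOFF_day4. DoxOn was below DoxOFF on both days with no overlap. At day 4 the difference was -3.29 ± 0.09 (9.76-fold lower, adjusted p = 1.81e-06). At day 2 it was at least 2.28-fold lower, taking the lowest level above background as the bound (limma, adjusted p = 0.000597). With both DoxOn_day2 arrays at the floor, that p-value leaves out their spread. That day 2 call ended with no background correction and with the floor raised to 2 times its value, at adjusted p up to 0.0827. Over time Cdh22 rose 11.9-fold without Dox (3.57 ± 0.09, adjusted p = 9.65e-07) and at least 2.77-fold with Dox (adjusted p = 0.000133).

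Cdh11 encodes OB-cadherin, known from mesenchyme and bone-forming cells. It read 1.16 and 1.99 in DoxOFF_day2, 1.50 and 1.48 in DoxOn_day2, 5.83 and 5.56 in DoxOn_day4, and 6.57 and 6.14 in DoxOFF_day4. Both day 4 groups stood far above both day 2 groups. Cdh11 rose 27.4-fold without Dox (4.78 ± 0.28, adjusted p = 2.7e-05) and 18.5-fold with Dox (4.21 ± 0.28, adjusted p = 0.000158). The difference between these 2 rises, -0.57 ± 0.40, was not called (adjusted p = 0.378), and neither was the difference with Dox at day 4 (-0.66 ± 0.28, adjusted p = 0.134).

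Cdh8, a type II cadherin of neural tissue, gave discordant replicates. It read 5.17 and 4.95 in DoxOFF_day4 and between 1.04 and 1.78 on the 4 day 2 arrays, but 1.17 and 4.77 on the 2 DoxOn_day4 arrays. The scanner's spot medians before any correction were 59.3 and 89.3 on those 2 arrays. The difference with Dox at day 4 was therefore imprecise (-2.09 ± 1.02, adjusted p = 0.183). The rise without Dox was called (3.65 ± 1.02, adjusted p = 0.029) but was lost without any 1 of the 4 day 2 arrays or of the 2 DoxOFF_day4 arrays, and its adjusted p reached 0.131. Cdh6, encoding K-cadherin of kidney and neural crest, read 3.29 and 2.71 in DoxOFF_day4 and between 1.04 and 2.16 elsewhere. Its fall with Dox at day 4 (-1.42 ± 0.43, adjusted p = 0.0469) was lost in 9 of the alternatives, among them the fits without DoxOn_day4 replicate 2 or without any DoxOFF array (up to 0.22). Its rise over time without Dox (1.71 ± 0.43, adjusted p = 0.0191) was lost without DoxOFF_day2 replicate 1 and without either DoxOFF_day4 array (up to 0.12).

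The other type II calls were smaller. Cdh10, a cadherin of brain, read 4.66 and 4.79 in DoxOFF_day2 against 4.07 and 3.71 in DoxOn_day2, so it was lower with Dox at day 2 (-0.84 ± 0.20, adjusted p = 0.0378). This call was lost without any array of day 2 and without either DoxOFF_day4 array, at up to 0.183. Cdh9, a cadherin of neural circuits, fell over time without Dox from 4.16 and 3.55 to 2.52 and 2.60 (-1.30 ± 0.26, adjusted p = 0.00792). Without DoxOFF_day4 replicate 1 that fall had an adjusted p of 0.0531. Cdh20 rose without Dox from 2.06 and 1.99 to 3.28 and 2.92 (1.08 ± 0.20, adjusted p = 0.00512). Cdh5, VE-cadherin of endothelial junctions, lay between 1.23 and 1.93 on all arrays. It fell slightly over time with Dox (-0.50 ± 0.14, adjusted p = 0.0471), a call lost in 13 of the alternatives, among them the fits without any single array other than DoxOn_day4 replicate 1. Cdh12, Cdh18, Cdh19 and Cdh24 were called in no comparison. Cdh19, a cadherin known from Schwann cells, lay between 5.20 and 5.62. The second Cdh24 probe was above background on no array.

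**Figure D2:**
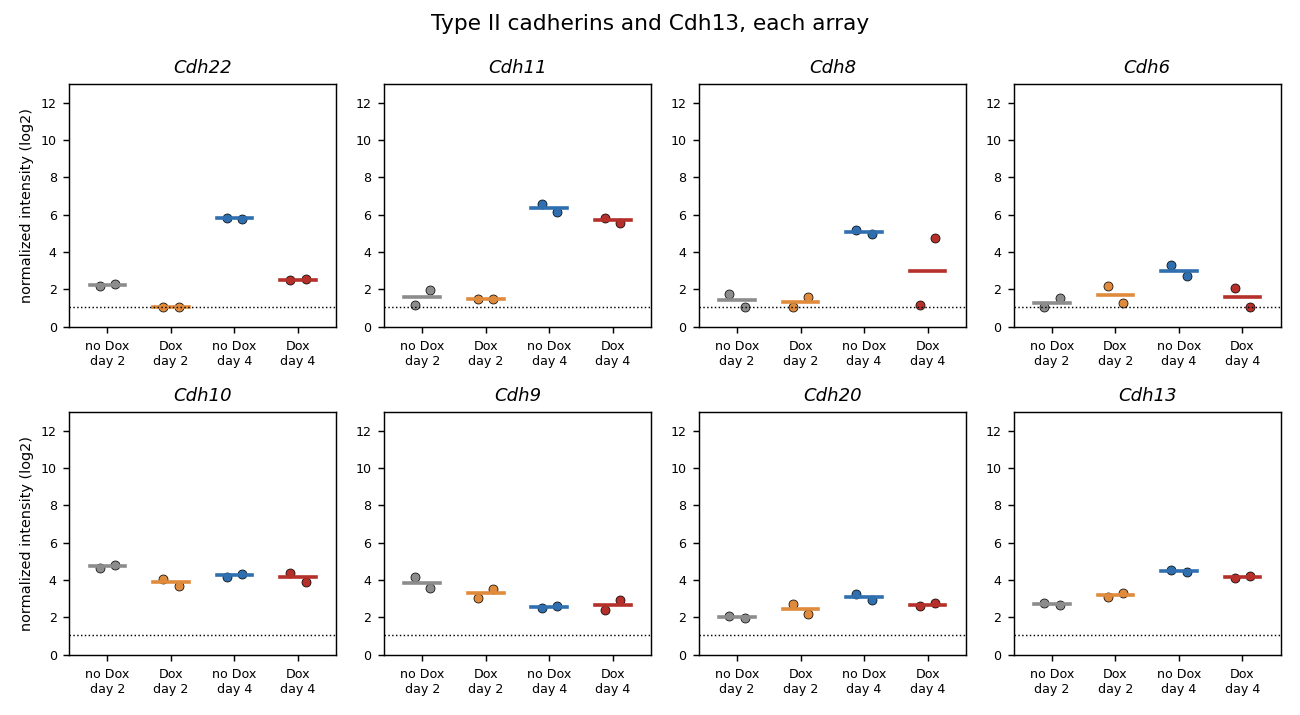
Normalized log2 intensity (y axis) of 7 type II cadherins and of Cdh13 on each array, by group (x axis); points are arrays, bars the mean of 2 arrays, and the dotted line is the floor at 1.04. Cdh22 is highest without Dox at day 4 (5.83 and 5.77), Cdh11 is high in both day 4 groups, and the 2 Cdh8 arrays with Dox at day 4 read 1.17 and 4.77.

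Among the other Cdh genes, Cdh13 encodes T-cadherin, which is held in the membrane by a lipid anchor and has no tail inside the cell. It read 2.79 and 2.68 in DoxOFF_day2, 3.09 and 3.32 in DoxOn_day2, 4.10 and 4.22 in DoxOn_day4, and 4.52 and 4.43 in DoxOFF_day4. It was higher at day 4 in both conditions, by 1.74 ± 0.12 without Dox (adjusted p = 5.34e-05) and by 0.96 ± 0.12 with Dox (adjusted p = 0.00201). Neither Dox comparison passed on its own, at day 2 (0.47 ± 0.12, adjusted p = 0.0501) or at day 4 (-0.31 ± 0.12, adjusted p = 0.0943). Cdh17, LI-cadherin of liver and intestine, rose with Dox over time (0.48 ± 0.10, adjusted p = 0.0187) from 1.04 on both arrays to 1.54 and 1.51. That call lies near the floor and was lost under 9 alternatives, among them the fits without any 1 DoxOn array. Cdh16 of kidney, Cdh23 of the inner ear's hair cells and Cdh26 were called in no comparison.

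The delta protocadherins, which lie outside the large gene clusters, comprised 8 genes tested. With Dox at day 4, 4 of them fell (Pcdh8, Pcdh17, Pcdh18 and Pcdh19) and 1 rose (Pcdh1), and over time without Dox the same 4 rose and Pcdh1 fell. These 5 of 8 in each comparison (62.5%) stand against 29.9% of all probes at day 4 and 38.1% over time without Dox. Both comparisons use the DoxOFF_day4 arrays, so they are not independent. Pcdh17 had entered the test only through DoxOFF_day4, which leaves 3 falls and 3 rises for genes that had not. With Dox, limma called 0 of the 8 over time, against 19.0% of all probes. At an unadjusted p under 0.05 there, 2 had a higher level at day 4 (Pcdh8 and Pcdh18), and 30.8% of all probes passed in either direction. Pcdh8 encodes a protocadherin of paraxial mesoderm and brain. It read 6.05 and 5.77 in DoxOFF_day2, 5.82 and 6.10 in DoxOn_day2, 6.36 and 6.63 in DoxOn_day4, and 7.13 and 7.11 in DoxOFF_day4. The day 4 arrays were all above the day 2 arrays, with those without Dox highest. Its difference with Dox at day 4 (-0.63 ± 0.16, adjusted p = 0.0238) was lost without DoxOn_day4 replicate 1 or either DoxOFF_day4 array (up to 0.126). Its rise without Dox was 1.21 ± 0.16 (adjusted p = 0.00107).

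Pcdh18 read 5.68 and 5.55 in DoxOFF_day2, 5.60 and 5.73 in DoxOn_day2, 6.0 and 6.03 in DoxOn_day4, and 6.60 and 6.62 in DoxOFF_day4. It was lower with Dox at day 4 (-0.60 ± 0.10, adjusted p = 0.00427) and rose over time without Dox (1.0 ± 0.10, adjusted p = 0.000295), with 0.35 ± 0.10 in the cells with Dox (adjusted p = 0.0516). Pcdh17, known from neural circuits, read 2.76 and 2.38 in DoxOFF_day4 and lay at the floor on the other 6 arrays. It was above background on neither DoxOn_day4 array and was at least 2.89-fold lower there (adjusted p = 0.000249). The floored arrays have no spread, so this p-value does not measure that of replicates. Pcdh19, a gene whose loss is linked to epilepsy in humans, read 3.10 and 2.38 in DoxOFF_day4, 1.04 and 1.43 in DoxOn_day4 and 1.04 on all day 2 arrays. Its difference with Dox at day 4 was -1.50 ± 0.24 (adjusted p = 0.00372), and without Dox it rose at least 3.07-fold over time (adjusted p = 0.00157). Both Pcdh19 calls ended with the floor at 2 times its value, at adjusted p of 0.0926 and 0.0806.

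Pcdh1 ran the other way. It read 4.20 and 4.43 in DoxOFF_day2, 3.27 and 2.90 in DoxOn_day2, 2.63 and 2.96 in DoxOn_day4, and 1.90 and 1.04 in DoxOFF_day4. At day 2 the arrays with Dox were the lower ones (-1.23 ± 0.29, adjusted p = 0.0402) and at day 4 the higher ones (1.32 ± 0.29, adjusted p = 0.0144). The day 2 call was lost without any 1 of the 4 day 2 arrays or of the DoxOn_day4 arrays, at up to 0.193. The day 4 call was lost without replicate 2 of either day 4 group, at up to 0.0877. Without Dox the fall over time was 7.18-fold (-2.84 ± 0.29, adjusted p = 0.000346). Pcdh9 has 2 probes that disagreed at day 4. The brighter one, which stands for the gene, gave 0.13 ± 0.13 (adjusted p = 0.502). The other read 3.02 and 2.95 in DoxOFF_day4 against 1.04 and 1.40 in DoxOn_day4, a difference of -1.76 ± 0.36 (adjusted p = 0.0103). Pcdh7 and Pcdh10 were called in no comparison.

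Of the other unclustered protocadherins, Cdhr1 encodes a cadherin of photoreceptors. It read 2.46 and 2.67 in DoxOFF_day2, 3.01 and 2.82 in DoxOn_day2, 2.59 and 2.56 in DoxOn_day4, and 1.04 and 1.74 in DoxOFF_day4. DoxOFF_day4 was again the low group, giving a difference with Dox of 1.18 ± 0.22 at day 4 (adjusted p = 0.00776). That call ended with no background correction and in a fit of the 4 day 4 arrays alone (up to 0.056). Pcdh20 rose over time without Dox (0.99 ± 0.22, adjusted p = 0.012) from 1.04 and 1.23 to 1.90 and 2.34, a call lost without DoxOFF_day2 replicate 1 or DoxOFF_day4 replicate 2 and with the floor at 2 times its value or no background correction (up to 0.327). Pcdh12, known from endothelial cells, and Pcdh15, a link protein of inner-ear hair cells, were called in no comparison.

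The clustered protocadherins give neurons their surface identity, and their copies are so alike that a probe of 1 gene may read others, so single-gene values are uncertain. With Dox at day 4, 3 of 16 tested fell and 0 rose (18.8%, against 29.9% of all probes). All 3 were beta genes, and 2 of them, Pcdhb3 and Pcdhb17, had passed the filter through DoxOFF_day4 alone, so Pcdhb21 is the fall that the filter did not favour. Pcdhb21 read 2.44 and 2.35 in DoxOFF_day2, 1.87 and 1.97 in DoxOn_day2, 1.61 and 1.92 in DoxOn_day4, and 3.72 and 3.87 in DoxOFF_day4. The arrays without Dox at day 4 were the high ones, and the difference with Dox was -2.03 ± 0.13 (adjusted p = 5.98e-05). On all arrays outside DoxOFF_day4, Pcdhb17 and Pcdhb3 lay at the floor. Their SD of 0 there comes from the floor, so their p-values below understate the spread of replicates. Pcdhb17 read 2.33 on both DoxOFF_day4 arrays and was at least 2.44-fold lower with Dox (adjusted p = 6.54e-05). Pcdhb3 read 1.91 and 2.79 there and was at least 2.47-fold lower (adjusted p = 0.009), a call lost without either DoxOn_day4 array (up to 0.351 over the alternatives). Over time without Dox, a comparison that shares the DoxOFF_day4 arrays, those 3 and Pcdhb2 rose (25% of 16, against 38.1% of all probes called). The rise of Pcdhb2 (1.08 ± 0.22, adjusted p = 0.0083) was lost without DoxOFF_day4 replicate 2, with no background correction and with the floor at 2 times its value (up to 0.336). That of Pcdhb3 (at least 2.34-fold, adjusted p = 0.00684) was lost with the floor at 2 times its value and in a fit of the 4 arrays compared (up to 0.324). With Dox limma called 0 of 16 over time, against 19.0% of all probes. At an unadjusted p under 0.05 there, 1 was higher, and 30.8% of all probes passed in either direction. Pcdhb19, between 6.57 and 6.90, and Pcdha1, between 2.71 and 3.37, were called in no comparison.

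**Figure D3:**
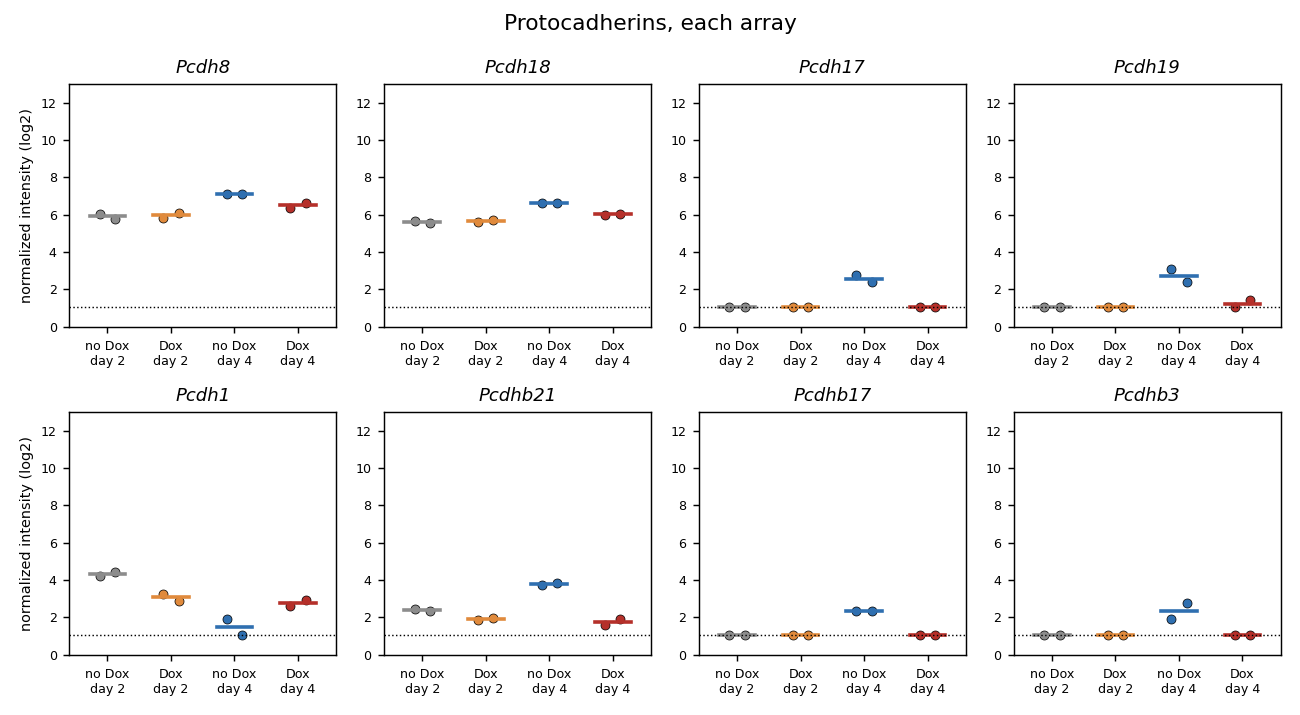
Normalized log2 intensity (y axis) of 5 delta and 3 clustered protocadherins on each array, by group (x axis); points are arrays, bars the mean of 2 arrays, and the dotted line is the floor at 1.04. The group without Dox at day 4 is the highest for Pcdh8, Pcdh18, Pcdh17, Pcdh19 and the 3 Pcdhb genes, and the lowest for Pcdh1 (1.90 and 1.04).

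At day 2 the members as a whole moved little with Dox. Of the 50 tested, 0 rose and 4 fell (Cdh1, Cdh10, Cdh22 and Pcdh1), which is 8% against 11.8% of all probes (5.55% higher, 6.25% lower). At an unadjusted p under 0.05 in limma, 4 were higher and 5 lower, which is 18% of the members against 25.1% of all probes. The median change was 0 for the members and -0.01 for all probes. Pluripotency, neural, endothelial and visceral endoderm markers were also called at day 2, and their values are given with the marker lists. Of these 4 genes, Cdh1 and Pcdh1 were higher with Dox at day 4, Cdh22 was lower on both days, and Cdh10 was not called at day 4 (-0.11 ± 0.20, adjusted p = 0.724).

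**Figure D4:**
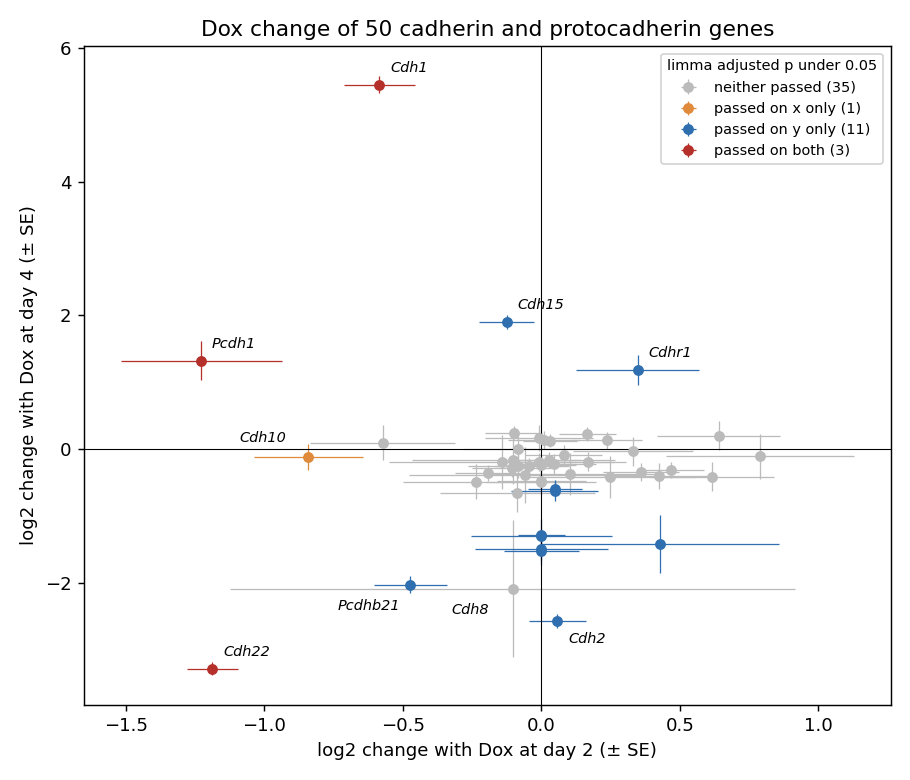
Log2 change with Dox of the 50 genes tested at day 2 (x axis) and at day 4 (y axis), each with its SE; colours give the comparisons in which limma's adjusted p was under 0.05, and 35 genes passed in neither. Cdh1 lies at -0.58 and 5.45, Cdh22 at -1.19 and -3.29, and Cdh2 at 0.06 and -2.58.

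The Dox changes of the 2 days were also compared directly, as an interaction in the same fit. The day 4 change exceeded the day 2 change in 3 genes (Cdh1, Cdh15 and Pcdh1) and lay below it in 10 genes. These 13 are 26% of the members, against 22.1% of all probes (11.1% higher, 11.0% lower). Among the 43 genes that did not depend on DoxOFF_day4 to be tested, the counts were 3 and 7 (23.3%). Cdh1 had the widest gap among the members, 6.03 ± 0.18 (adjusted p = 7.3e-06). For Cdh2 the gap was -2.63 ± 0.15 (adjusted p = 6.25e-05), for Cdh22 -2.10 ± 0.13 (adjusted p = 9.68e-05) and for Cdh15 2.02 ± 0.14 (adjusted p = 0.000149).

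The comparison over time without Dox had the highest count of called members among the 5. From day 2 to day 4 without Dox 17 rose and 5 fell, 44% of the 50, against 38.1% of all probes (20.2% higher, 17.9% lower). The 5 that fell were Cdh1, Cdh15, Cdh9, Pcdh1 and Cdhr1, and 14 of the 17 rises were at least 2-fold in the fit. Pcdh17, Pcdhb3 and Pcdhb17 are among those 14, and the share of all probes at 2-fold was not computed. The median change was 0.29, against 0.04 over all probes. It too covers all 50 genes, among them the 7 whose higher level in DoxOFF_day4 the filter favoured. Among the 43 genes that did not depend on DoxOFF_day4 to be tested, 14 rose and 5 fell (44.2%). With Dox 6 rose and 2 fell, 16% against 19.0% of all probes (9.63% higher, 9.33% lower), and the median change was 0.02. Of the 6 that rose with Dox, Cdh2, Cdh4, Cdh11, Cdh13 and Cdh22 also rose without it, and Cdh17 did not pass there (0.14 ± 0.10, adjusted p = 0.345).

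**Figure D5:**
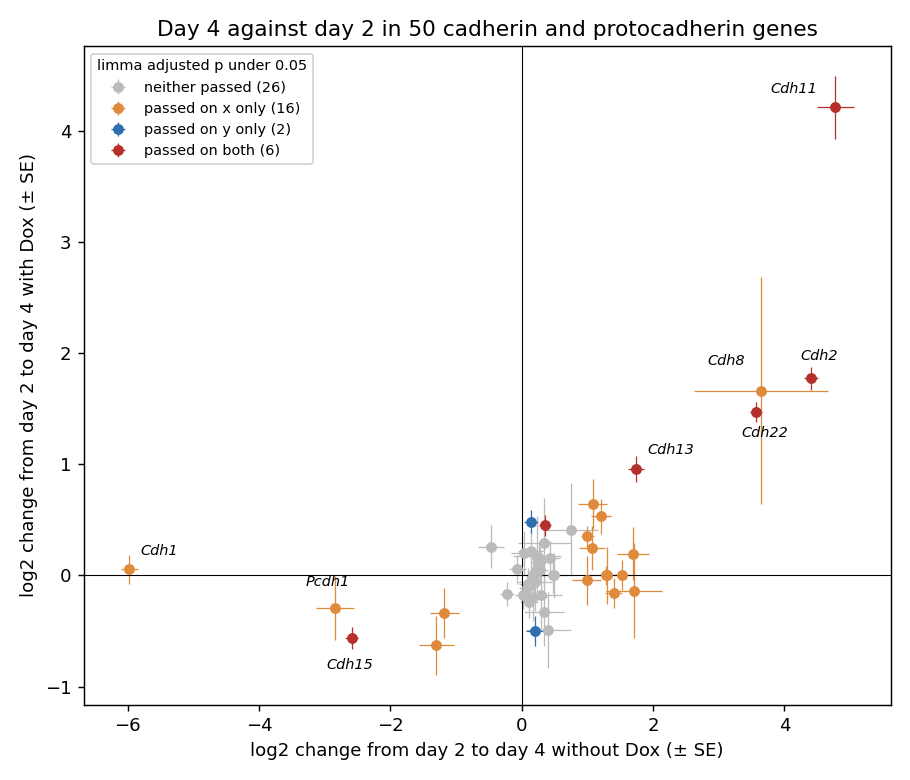
Log2 change from day 2 to day 4 of the 50 genes tested, without Dox (x axis) and with Dox (y axis), each with its SE; colours give the comparisons in which limma's adjusted p was under 0.05, with 6 genes passing in both and 16 only without Dox. Cdh11 lies at 4.78 and 4.21, Cdh2 at 4.41 and 1.78, and Cdh1 at -5.98 and 0.05.

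Partners of the cadherins were read from lists. Of 15 catenins and other partners tested, 2 rose and 5 fell with Dox at day 4, with a median change of -0.01. That is 46.7%, against 29.9% of all probes, in a list chosen with earlier results known. Arvcf, a catenin of the p120 family, read 6.05 on both DoxOFF_day4 arrays and 4.48 and 4.53 in DoxOn_day4 (-1.54 ± 0.12, adjusted p = 0.000127). Adam10, the protease that sheds the outer part of E- and N-cadherin, changed by -1.26 ± 0.09 (adjusted p = 0.000104) and Ctnnd2, the catenin of neurons, by -1.0 ± 0.16 (adjusted p = 0.0038). Ctnnb1, which encodes beta-catenin, read 10.12 and 10.23 without Dox and 9.52 and 9.39 with it (-0.73 ± 0.10, adjusted p = 0.00176). At day 2, 2 of the partners rose (Pkp4 by 1.10 ± 0.10, adjusted p = 0.000924, and Ctnnal1 by 0.95 ± 0.14, adjusted p = 0.00747) and 1 fell (Adam10, -0.44 ± 0.09, adjusted p = 0.0268), together 20% against 11.8% of all probes. The call of Ctnnal1 was lost when replicate 1 of either day 2 group was left out (up to 0.057), and that of Adam10 without any 1 of the day 2 arrays (up to 0.119).

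Desmosomal cadherins, the adhesion proteins of desmosomes, had 7 genes tested, of which 2 rose and 0 fell with Dox at day 4 (28.6%, against 29.9% of all probes). Dsg2, the desmoglein of simple epithelia, read 5.07 and 5.05 with Dox against 2.95 and 3.26 without (1.96 ± 0.15, adjusted p = 0.000117). Dsc1 was higher by 0.65 ± 0.13 (adjusted p = 0.00947), a call lost without DoxOn_day4 replicate 2 or with no background correction (up to 0.131). At day 2, limma called 0 of the 7, against 11.8% of all probes. At an unadjusted p under 0.05 there, 1 was higher, and 25.1% of all probes passed in either direction. Of 9 tested genes of other cadherin families, a list that includes Cdhr1, 1 rose (Cdhr1) and 1 fell with Dox at day 4 (22.2%, against 29.9% of all probes). The latter was Fat4, a giant cadherin of planar polarity (-1.13 ± 0.11, adjusted p = 0.000474), whose call ended with no background correction or with the floor at 2 times its value (up to 0.0802).

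Among 9 known repressors of the E-cadherin gene, 2 rose and 3 fell with Dox at day 4 (55.6%, against 29.9% of all probes). Zeb1 read 7.0 and 6.63 in DoxOFF_day4, where Cdh1 was lowest, and 4.81 and 4.60 in DoxOn_day4 (-2.11 ± 0.16, adjusted p = 0.00013). Snai2 was also lower with Dox (-1.05 ± 0.18, adjusted p = 0.00476), and Snai3 (1.91 ± 0.20, adjusted p = 0.000559) and Snai1 (1.03 ± 0.15, adjusted p = 0.00222) were higher. Twist1, between 6.88 and 7.16 on all arrays, and Twist2, between 6.09 and 6.31, were not called. Whether any of these factors acted on Cdh1 in these cells was not tested. At day 2 Zeb1 rose with Dox (0.97 ± 0.16, adjusted p = 0.0119), a call lost without either DoxOn_day2 array or without DoxOFF_day2 replicate 1 (up to 0.0817). Tcf3 was called higher there too (0.92 ± 0.22, adjusted p = 0.0448), but lost that call in most alternatives (up to 0.202), and its symbol has been used for more than 1 gene.

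Markers of cell types were also called on both days, while 29.9% of all probes were called with Dox at day 4 and 11.8% at day 2. The sums below add different probes, so the brightest genes of a list weigh most. All 4 pluripotency genes measured were higher with Dox at day 4, where their summed linear intensity was 71.7 to 72.0 in DoxOFF_day4 and 8245 to 8530 in DoxOn_day4. At day 2 it was 10557 to 10656 in DoxOFF_day2 and 14882 to 16045 in DoxOn_day2, with 2 of 4 higher with Dox (Nanog and Zfp42). The summed level of the 4 neural genes was 4047 to 4430 in DoxOFF_day4 and 252 to 268 in DoxOn_day4, with 3 of 4 lower with Dox (Pax6, Fabp7 and Tubb3). At day 2 it was 272 to 295 without Dox and 161 to 162 with Dox, with 3 of 4 lower (Pax6, Fabp7 and Nes). Over time without Dox, where 38.1% of all probes were called, Fabp7 and Nes rose and Pax6 fell. Changes of the 4 ran from -1.26 to 5.59, so the neural sum does not stand for each gene. The 6 primitive streak and mesoderm genes summed to 2446 to 2504 in DoxOn_day4 and to 79.2 to 86.5 in the other groups, with 5 of 6 higher with Dox at day 4, 1 of 6 lower at day 2 (Pdgfra) and Mesp1 above background on neither DoxOFF_day4 array. Epcam and Grhl3, the 2 surface epithelium genes measured, summed to 32.3 to 35.3 in DoxOFF_day4 and 2161 to 2230 in DoxOn_day4, and to 2781 to 2993 in DoxOFF_day2 and 1847 to 1887 in DoxOn_day2. Both were higher with Dox at day 4, at day 2 Grhl3 was higher and Epcam lower, and Grhl3 was above background on neither DoxOFF_day4 array. The 6 endothelial genes summed to 31.2 to 31.3 in DoxOFF_day4, where Pecam1 and Tek were not above background, and to 41.4 to 44.0 in DoxOn_day4, with 2 of 6 higher with Dox. At day 2 they summed to 164 to 176 without Dox and 197 to 210 with Dox, with 3 of 6 higher and 1 lower. The 5 visceral endoderm genes summed to 82.3 to 103 in DoxOFF_day2 and 17.1 to 18.6 in DoxOn_day2, with all 4 tested lower with Dox at day 2. At day 4 they summed to 15.1 to 16.1 in DoxOFF_day4 and 55.0 to 66.9 in DoxOn_day4, with Foxa2 higher with Dox (3.20 ± 0.23, adjusted p = 9.64e-05) and Ttr lower. Afp was above background on no array, and Ttr and Apoa1 were not above background in either DoxOn group. The part of these markers in the cadherin results was not tested.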

How the data were processed

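RNA of 8 embryoid body samples was read on single-colour Toray 3D-Gene arrays (Cy5, 635 nm), 2 per group, grouped by title. Per the file headers, the deposited scanner intensity values are spot medians joined over 3 scanner gains and not background-corrected. Scanner software, and how the authors made the deposited processed intensity values, were not given in the sources used here. Each array's blank mean (52.3 to 60.9, SD 0.871 to 1.37) was subtracted, because the scanner's local background column tracked the spot (r of logs at least 0.984). Values were quantile normalized, floored at 2.06 and log2 transformed. Precision is limited by the number of arrays.

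Of 23473 gene probes, 21661 above background on at least 2 arrays were tested with limma 3.58.1 in R 4.3.3: 1 mean per group over all 8 arrays, 5 contrasts, Benjamini-Hochberg adjustment over all probes tested, threshold 0.05, 2-sided. The SE rests on 4 residual degrees of freedom and a prior of 2.70. The script was tested on simulated data. Arrays of a group correlated at r of at least 0.993, and arrays of different groups at 0.985 or less. Where no array of a group was above background, the fold is a bound against the lowest level above background. The bounds rest on the blank spots, and negative control spots averaged 1.21 to 1.80 units above them.

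Probes were named from the platform annotation: 16631 have 1 symbol and 6842 none, and 3947 symbols were updated with a RefSeq table (GRCm38.p6). Where a gene has several probes the brightest stands for it. Cdh1 and Cdh2 are always named, as is any cadherin past the threshold, and up to 4 genes of each list by size of change. The cadherin genes, lists and tests were chosen with earlier results of these data known. Alternatives covered the background, normalization, floor, filter, variance prior, replicate block, the authors' values and each array left out. Figures were drawn with matplotlib 3.10.9.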

Additional observations from a re-analysis of the deposited data

Results flagged for a closer look

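The Dox change differed between day 4 and day 2 in 13 cadherin and protocadherin genes, by limma's test of that difference with adjustment over all probes. Values are the log2 change with Dox at day 4 minus that at day 2. It was larger at day 4 for Cdh1 (6.03), Pcdh1 (2.55, adjusted p = 0.00549) and Cdh15 (2.02). It was smaller, or more negative, for Cdh2 (-2.63) and Cdh22 (-2.10). Among the protocadherins the difference was -1.56 for Pcdhb21 (adjusted p = 0.00158), -1.53 for Pcdh17 (adjusted p = 0.00188), -1.50 for Pcdh19 (adjusted p = 0.0213) and -0.65 for Pcdh18 (adjusted p = 0.0178). For Pcdhb17 it was -1.29 (adjusted p = 0.000547) and for Pcdhb3 -1.30 (adjusted p = 0.0441), both genes above background only in DoxOFF_day4. Cdh13 (-0.78, adjusted p = 0.0173) and Cdh5 (-0.70, adjusted p = 0.0435) passed in the difference while passing in the Dox comparison of neither day.

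Several of these calls depended on single arrays. That of Cdh13 was lost without replicate 2 of either day 2 group, DoxOn_day4 replicate 1 or DoxOFF_day4 replicate 1 (up to 0.0577), and that of Pcdh18 without replicate 2 of either day 2 group or DoxOn_day4 replicate 1 (up to 0.059). Pcdh19 lost it without any 1 of the day 2 arrays or DoxOn_day4 replicate 1 (up to 0.226), and Pcdhb3 without any 1 of the day 2 or DoxOn_day4 arrays (up to 0.549). Cdh5 lost it in all but 3 of the alternatives other than normexp. Cdh1, Cdh2, Cdh22, Cdh15, Pcdh1, Pcdh17, Pcdhb21 and Pcdhb17 kept the call when any 1 array was left out. The call of Pcdh17 was lost with no background correction and with the floor at 2 times its value (up to 0.127).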

How the results depend on the processing

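Counts of members called were 4, 14, 13, 22 and 8 for Dox at day 2, Dox at day 4, their difference, time without Dox and time with Dox. Normexp on the local background column, which follows the spot and so removes signal, called 0 in every comparison. It left 1, 3, 1, 4 and 0 members, and 477, 855, 523, 605 and 783 probes, at an unadjusted p under 0.05, and called 1, 0, 0, 0 and 3 probes of the whole array in place of 2557, 6483, 4794, 8263 and 4108. Under it log2 changes reversed. At day 2 they were Cdh1 1.86, Cdh2 -0.046, Pkp4 -0.046 and Ctnnal1 -0.15. At day 4 they were Cdh1 -0.25, Cdh22 0.012, Cdhr1 -0.00071, Pcdh1 -0.0054, Pcdh19 0.0070, Pcdh8 0.019, Arvcf 0.033, Adam10 0.11, Ctnnd2 0.0098, Ctnnb1 0.43 and Dsc1 -0.0013. For the difference they were Cdh1 -2.11, Cdh22 0.020, Cdh5 0.00062, Pcdh19 0.0067 and Pcdhb21 0.012. Over time without Dox they were Cdh1 0.57, Cdh22 -0.013, Cdh8 -0.0068, Cdh9 0.00049, Pcdh19 -0.0053 and Pcdhb21 -0.0042, and with Dox Cdh15 0.021, Cdh17 -0.0010, Cdh4 -0.021 and Cdh1 -1.54.

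The authors' processed values, with 36 members tested, called 2 members at day 2, 7 at day 4 and 7 for the difference. In that setting 11.7%, 30.2% and 22.1% of all probes were called. Among the 28 members above background on all arrays, 6 were called at day 4, 7 for the difference and 10 over time without Dox. With that filter 33.1%, 24.8% and 41.6% of all probes were called. Fewer genes were tested in both settings. A fit of the 4 arrays compared called 1 member at day 2 and 1345 probes in place of 2557. Leaving out 1 array gave 1 to 3 members at day 2 (1163 to 2266 probes), 12 to 14 at day 4, 8 to 15 for the difference, 18 to 22 over time without Dox and 4 to 7 with Dox (2421 to 3840 probes). Changes that were not called turned sign for Cdh2 at day 2 without DoxOFF_day2 replicate 2 (-0.038, with 0.15 as the highest value over the arrays left out) and for Cdh1 over time with Dox without DoxOn_day4 replicate 2 (-0.015, with 0.12 as the highest). The replicate block called 1 member at day 2 and 14, 12, 22 and 8 in the others. With the block 9.27% of all probes were called at day 2, and 27.3%, 19.2%, 35.8% and 16.4% in the others. The deviations of same-numbered arrays from their group means correlated at r of -0.27 to 0.23 over 6 pairs of groups. With 2 arrays per group this cannot show whether a number marks a shared culture or run, and the labels do not say. A slide or scan block was not run because the headers give none. Dim genes near the floor, such as Pcdh17 and Pcdh19, are limited by signal over background. The calls for Cdh1 and Cdh2 at day 4 and over time without Dox held under every alternative run but normexp.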
